A study of Mus musculus with 30 samples.

Results

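The 10 core genes of the circadian clock described here were Arntl, Clock, Npas2, Per1, Per2, Per3, Cry1, Nr1d1, Nr1d2 and Dbp. They were taken by symbol from a table of 19470 entries for lung and one of 18845 entries for spleen, and each of the 10 had 1 entry in each table. Messenger RNA had been sequenced from 8-week-old C57BL/6 mice of 3 genotypes: a line labelled lincRNA-Cox2 knockout, a line labelled lincRNA-Cox2 mutant, and wild type. Mice of each genotype received 20 mg/kg of lipopolysaccharide (LPS, a bacterial cell wall component sensed by Toll-like receptor 4) by the intraperitoneal route and were sampled after 6 h; the other mice are labelled PBS, with no time. Each genotype gave 3 libraries with LPS and 2 with PBS in each tissue, 30 in all, and the labels do not say that they came from separate animals, how each line was made or at what hour of the day tissues were taken. The deposited values are group means of normalized counts, so no spread between libraries can be given. LPS and hour of sampling cannot be told apart where the 2 treatments were sampled at different hours.

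The circadian clock is a feedback loop of transcription that runs in nearly every cell. CLOCK, or its relative NPAS2, pairs with BMAL1, the product of Arntl, and the pair binds E-box sequences to switch on the Per, Cry and Nr1d genes and Dbp. PER and CRY proteins then block the pair, while the REV-ERB receptors made from Nr1d1 and Nr1d2 silence Arntl and Npas2 through ROR elements, so that Dbp and Nr1d1 are high at hours when Arntl and Npas2 are low. DBP carries the rhythm onward by binding D-box sequences, among them those of the Per genes. In lung and spleen these genes are known to cycle over the day, and REV-ERB alpha, the product of Nr1d1, is known to restrain inflammatory genes of macrophages.

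Letters of the elements named above were looked for in the promoters of these genes. RefSeq start sites (GRCm38.p6, the assembly of mm10; 250 bases before the start to 50 after it) gave 13 windows for 9 of the 10 genes, and both strands were searched for CACGTG (E-box), CACGTT (E'-box, read as AACGTG on the other strand), TTATGTAA or TTACGTAA (D-box) and TAGGTCA or TGGGTCA (the core of a ROR element). Of 32851 mouse promoter windows of the same length 7.15% held the E-box, 4.68% the E'-box, 1.06% the D-box and 6.45% the ROR core. The windows of Arntl, Per1, Per3, Cry1 and Nr1d1 held 7 matches, none of which shared a base with another. These 5 windows are shown 5′ to 3′ on the strand of the gene with the matches in capitals. Of the 9 genes, 2 had an E-box, 2 an E'-box, 1 a D-box and 1 a ROR core. With so few genes, nothing is read from these counts beside the shares of all windows.
Arntl, second start site, chr7:113207261-113207560, plus strand, 1 ROR core: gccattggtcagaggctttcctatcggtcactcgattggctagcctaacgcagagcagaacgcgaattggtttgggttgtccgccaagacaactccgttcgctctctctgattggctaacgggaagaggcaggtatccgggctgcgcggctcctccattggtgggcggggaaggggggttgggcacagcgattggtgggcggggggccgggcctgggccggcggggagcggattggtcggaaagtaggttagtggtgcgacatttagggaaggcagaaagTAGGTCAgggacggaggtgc
Per1, first start site, chr11:69098699-69098998, plus strand, 1 E-box: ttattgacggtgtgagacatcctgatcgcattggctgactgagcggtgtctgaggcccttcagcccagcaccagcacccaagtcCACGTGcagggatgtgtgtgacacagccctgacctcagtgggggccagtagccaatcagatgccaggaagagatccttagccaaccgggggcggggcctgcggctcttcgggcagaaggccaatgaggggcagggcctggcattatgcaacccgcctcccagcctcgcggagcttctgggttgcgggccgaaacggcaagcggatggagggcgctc
Per3, chr4:151044616-151044915, minus strand, 2 D-boxes: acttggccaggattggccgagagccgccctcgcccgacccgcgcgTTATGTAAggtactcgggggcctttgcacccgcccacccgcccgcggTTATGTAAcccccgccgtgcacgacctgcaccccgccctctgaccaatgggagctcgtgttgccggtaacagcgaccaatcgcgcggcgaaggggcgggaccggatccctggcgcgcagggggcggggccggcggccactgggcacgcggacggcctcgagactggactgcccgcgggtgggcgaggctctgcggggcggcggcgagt
Cry1, chr10:85185005-85185304, minus strand, 1 E'-box and 1 E-box: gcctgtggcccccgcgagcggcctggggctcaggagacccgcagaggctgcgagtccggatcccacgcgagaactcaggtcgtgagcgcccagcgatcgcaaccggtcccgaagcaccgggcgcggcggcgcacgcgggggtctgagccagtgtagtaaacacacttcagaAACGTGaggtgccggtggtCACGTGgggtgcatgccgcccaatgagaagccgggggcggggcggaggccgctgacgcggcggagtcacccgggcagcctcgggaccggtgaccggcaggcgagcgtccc
Nr1d1, chr11:98775328-98775627, minus strand, 1 E'-box: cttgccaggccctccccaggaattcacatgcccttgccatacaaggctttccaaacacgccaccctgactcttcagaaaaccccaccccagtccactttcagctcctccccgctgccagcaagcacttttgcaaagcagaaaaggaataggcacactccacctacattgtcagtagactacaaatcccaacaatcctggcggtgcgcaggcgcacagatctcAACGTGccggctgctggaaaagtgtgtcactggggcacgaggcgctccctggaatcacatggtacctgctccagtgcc

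Per3 carried the D-box letters at 205 and again at 158 bases before its start, and the ROR core of Arntl lay 30 bases after its second start. The windows of Clock, Npas2, Nr1d2 and Dbp and the other windows of Arntl and Per1 held none of these letters; elements farther from a start were not searched. A match is a stretch of letters and does not show that a factor was bound there.

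Checks on the samples came out as follows. The targeted lincRNA-Cox2 had a mean of 0 normalized counts in knockout and mutant lung with both treatments, against 30.2 with LPS and 34.8 with PBS in wild type lung. In spleen it was low everywhere, with 0.322 in the knockout with LPS, 0 in the knockout with PBS and in both mutant groups, and 3.53 with LPS and 2.13 with PBS in wild type. Markers of lung epithelium summed to between 76470 and 114410 in the lung groups and to between 711 and 2305 in the spleen groups, and B cell markers summed to between 2987 and 9762 in spleen. The groups were not alike in sex-linked RNA. Xist, expressed from the inactive X chromosome of females, averaged 23.2 with LPS against 1910 with PBS in knockout lung and 14.5 against 3660 in wild type lung, but 4510 against 3300 in mutant lung. The Y-linked Ddx3y averaged 1130 against 447 in knockout lung, 4.73 against 317 in mutant lung and 1150 against 294 in wild type lung, and both genes gave the same picture in spleen.

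LPS against PBS asks what the clock genes did 6 h into systemic inflammation. In lung, Dbp, Per3 and Nr1d1 were at least 2-fold lower with LPS in all 3 genotypes and Arntl and Npas2 at least 2-fold higher, while Clock was nearly level. In spleen Dbp and Per3 were again at least 2-fold lower in all 3 genotypes, but Per1 was the gene that was at least 2-fold higher in all 3, and Arntl lay below its PBS level. Treatments were not tested against each other in the deposited tables. The values are therefore plain ratios of 2 group means, as log2 of LPS over PBS with a pseudocount of 1 unless called a fold, with no error and no p-value.

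In lung 4 of 10 clock genes were at least 2-fold lower with LPS in the knockout, where 17.7% of all 15208 genes whose mean reached 10 with LPS or with PBS were. In the mutant it was 4 of 10, against 16% of all genes, and in wild type 3 of 10, against 14.3%. Arntl and Npas2, 2 of 10, were at least 2-fold higher in each genotype, where 16.9% of all genes were in the knockout, 15.5% in the mutant and 13.9% in wild type. The median log2 ratio of the 10 clock genes was -0.37 in the knockout, -0.28 in the mutant and -0.20 in wild type, beside -0.01, -0.03 and -0.03 for all genes in the same order. In each genotype 6 of the 10 genes had a ratio below 0 and 4 above it.

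In spleen Dbp and Per3, 2 of 10, were at least 2-fold lower with LPS in each genotype, where 18.7% of all genes were in the knockout, 16.7% in the mutant and 14.8% in wild type. Per1 and Npas2 were at least 2-fold higher in the knockout, beside 16.6% of all genes, and in the mutant, beside 15.3%. In wild type Per1 alone was, beside 13.5% of all genes. Npas2 had a mean under 10 in every spleen group, so 9 of the 10 clock genes passed the filter that was set for all genes there. The median log2 ratio of the clock genes was 0.02 in the knockout, -0.32 in the mutant and -0.48 in wild type spleen, beside -0.02, 0.00 and 0.02 for all genes.

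**Figure D1:**
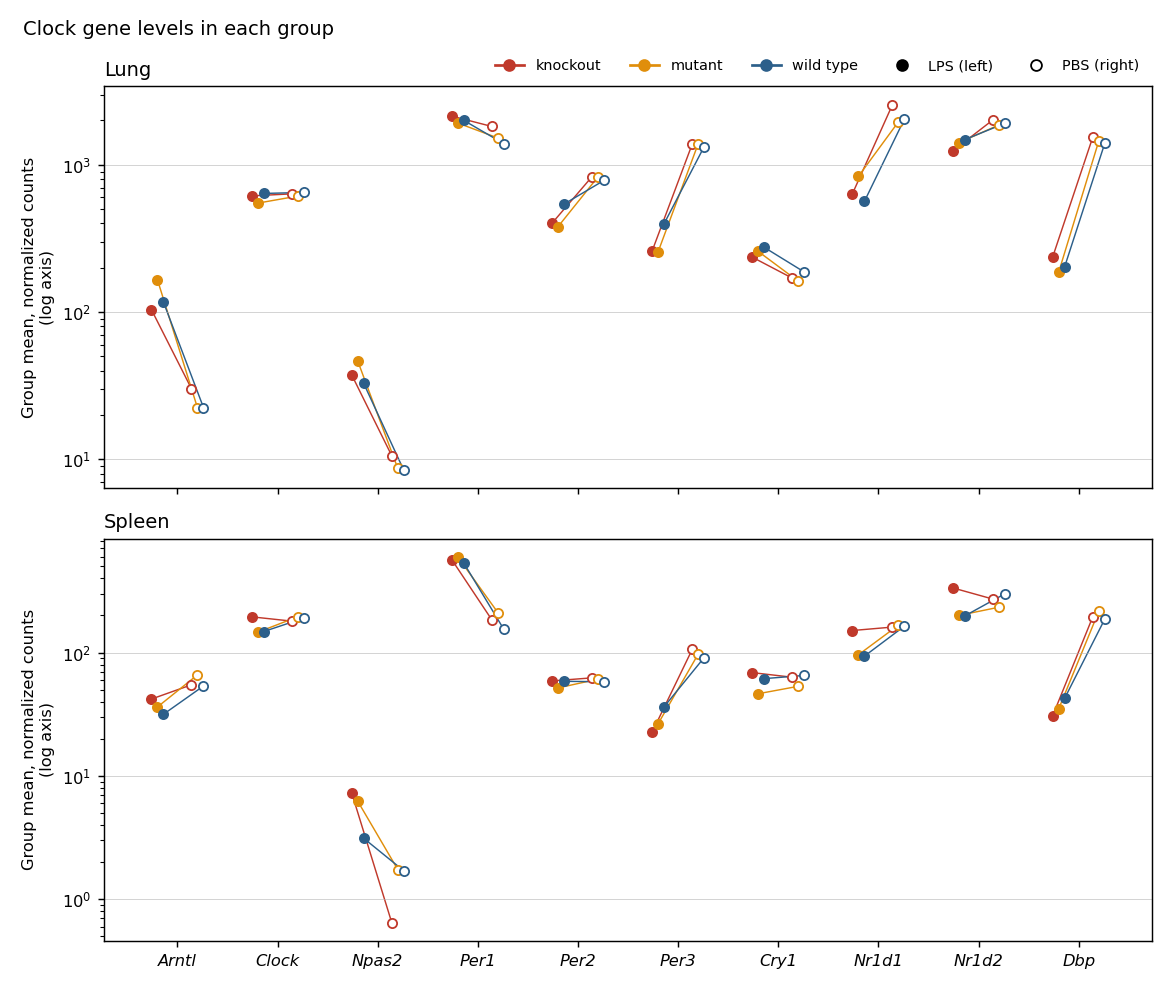
Group means of the 10 clock genes in normalized counts (log axis) in lung (top) and spleen (bottom), with filled points for LPS, open points for PBS and lines joining the 2 groups of a genotype. Dbp and Per3 are lower with LPS in all 3 genotypes of both tissues, and Arntl is higher with LPS in lung but lower in spleen.

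Among the activators, Arntl (chr7:113207465-113314126, plus strand; positions are of GENCODE M21 on GRCm38) stood out in lung. Its mean was 104 normalized counts with LPS against 30.2 with PBS in the knockout, 166 against 22.4 in the mutant and 117 against 22.5 in wild type. All 3 LPS means lay above all 3 PBS means, by 3.44-fold in the knockout, 7.41-fold in the mutant and 5.20-fold in wild type. In wild type lung 95.7% of 15041 genes had a lower log2 ratio than Arntl. In spleen the order was turned round, with 42.0 against 54.8 in the knockout, 36.2 against 66.0 in the mutant and 31.6 against 53.6 in wild type. There too the LPS and PBS means did not overlap, and the log2 ratios were -0.38, -0.85 and -0.74.

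Npas2 (chr1:39193731-39363236, plus strand), which can stand in for CLOCK as the partner of BMAL1, went with Arntl in lung. It averaged 37.5 with LPS against 10.6 with PBS in the knockout, 46.6 against 8.70 in the mutant and 32.8 against 8.45 in wild type, again without overlap. The log2 ratios were 1.73, 2.29 and 1.84 in the same order. In spleen Npas2 had low means in all 6 groups. They were 7.28 against 0.646 in the knockout, 6.24 against 1.74 in the mutant and 3.12 against 1.70 in wild type, and with a pseudocount of 10 it was under 2-fold in all 3 genotypes.

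Clock (chr5:76209868-76304792, minus strand), the third activator, had no ratio past 2-fold. In lung it averaged 615 with LPS against 635 with PBS in the knockout, 549 against 613 in the mutant and 639 against 649 in wild type. In spleen the means were 195 against 180 in the knockout, 146 against 195 in the mutant and 148 against 190 in wild type. The treatments overlapped in both tissues, and the log2 ratios ran from -0.42 to 0.11 over the 6 pairs of groups.

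The 3 Per genes, whose proteins hold back BMAL1 and its partner, did not move as one. Per3 (chr4:151003652-151044665, minus strand) had the lowest ratio of them: it averaged 260 against 1380 with PBS in knockout lung, 257 against 1390 in mutant lung and 399 against 1330 in wild type lung. Spleen gave 22.6 against 106 in the knockout, 26.5 against 97.3 in the mutant and 36.4 against 91.2 in wild type. The LPS and PBS means of Per3 were well apart in both tissues, with log2 ratios of -2.40, -2.43 and -1.73 in lung and -2.18, -1.84 and -1.30 in spleen for knockout, mutant and wild type.

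Per2 (chr1:91415982-91459324, minus strand), a core repressor of the loop, was lower with LPS in lung. It averaged 401 against 831 in knockout lung, 380 against 829 in mutant lung and 541 against 784 in wild type lung, so that the knockout and the mutant were just past 2-fold, with log2 ratios of -1.05 and -1.12, and wild type was not, at -0.53. In spleen Per2 averaged 58.9 against 62.4 in the knockout, 51.7 against 60.9 in the mutant and 58.5 against 58.0 in wild type, and the treatments overlapped. The difference between tissues was not tested.

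Per1 (chr11:69095217-69109960, plus strand), which hormones and other acute signals are known to induce directly, was the clock gene with the highest log2 ratio in wild type spleen. It averaged 566 with LPS against 184 with PBS in knockout spleen, 595 against 211 in mutant spleen and 531 against 154 in wild type spleen, a 3.08-fold, 2.82-fold and 3.45-fold difference. In wild type spleen 95.6% of 13513 genes had a lower log2 ratio. Per1 in lung had ratios nearer 0, with means of 2140 against 1820 in the knockout, 1920 against 1520 in the mutant and 2000 against 1390 in wild type. The 3 LPS means were still above the 3 PBS means in lung, but the log2 ratios were 0.23, 0.34 and 0.52.

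Cry1 (chr10:85131700-85185064, minus strand), the cryptochrome of the set and a repressor of BMAL1 and CLOCK, was slightly higher with LPS in lung, at 236 against 170 in the knockout, 258 against 162 in the mutant and 275 against 187 in wild type. In spleen it averaged 68.8 against 63.1, 46.4 against 53.3 and 61.5 against 65.3 in the same order, and the treatments overlapped. No log2 ratio of Cry1 was past 2-fold.

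Nr1d1 (chr11:98767932-98775333, minus strand) and Nr1d2 (chr14:18204054-18239127, minus strand) make REV-ERB alpha and beta, the receptors that silence Arntl. Nr1d1 averaged 636 with LPS against 2560 with PBS in knockout lung, 835 against 1960 in mutant lung and 565 against 2050 in wild type lung. Its LPS and PBS means were far apart there, with log2 ratios of -2.01, -1.23 and -1.86, and 4.41% of genes had a lower ratio in wild type. In spleen Nr1d1 averaged 151 against 161 in the knockout, 96.0 against 167 in the mutant and 93.6 against 164 in wild type, so that the knockout was almost level between treatments and the other two were not; the 3 LPS means lay below the 3 PBS means. Nr1d2 was between 1240 and 1480 with LPS against 1860 to 2010 with PBS in lung, without overlap and under 2-fold. In spleen Nr1d2 was higher with LPS in the knockout, at 335 against 272, and lower in the mutant, at 200 against 233, and in wild type, at 198 against 299.

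Thra, the gene of a thyroid hormone receptor, is transcribed towards Nr1d1 from the opposite strand, and their exons share 263 bases, 8.55% of the exon length of Nr1d1 in GENCODE. No source says whether reads were counted by strand. Thra averaged 158 against 820 in knockout lung, 237 against 709 in mutant lung and 180 against 683 in wild type lung, so it was lower with LPS as Nr1d1 was, and reads from the shared bases cannot be assigned to one of them. Dbp shares 539 exon bases (18.0%) with Sphk2, a sphingosine kinase on the opposite strand. Sphk2 lay the other way in lung, at 359 against 209 in the knockout, 276 against 198 in the mutant and 299 against 236 in wild type. In spleen Thra averaged 31.8 against 82.9 in the knockout, 44.3 against 93.5 in the mutant and 33.6 against 93.3 in wild type. Sphk2 averaged 155 against 140, 173 against 140 and 175 against 113 there in the same order.

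Dbp (chr7:45705088-45710203, plus strand), the output factor that binds D-boxes, had the lowest log2 ratio of the 10 genes in every genotype of both tissues. It averaged 237 with LPS against 1540 with PBS in knockout lung, 187 against 1450 in mutant lung and 204 against 1400 in wild type lung. These means were 6.50-fold, 7.75-fold and 6.86-fold lower with LPS, and the LPS groups were close to each other, as were the PBS groups. In wild type lung 1.32% of genes had a lower ratio. Spleen gave 30.8 against 195 in the knockout, 35.0 against 216 in the mutant and 42.7 against 187 in wild type, 6.33-fold, 6.17-fold and 4.38-fold lower.

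**Figure D2:**
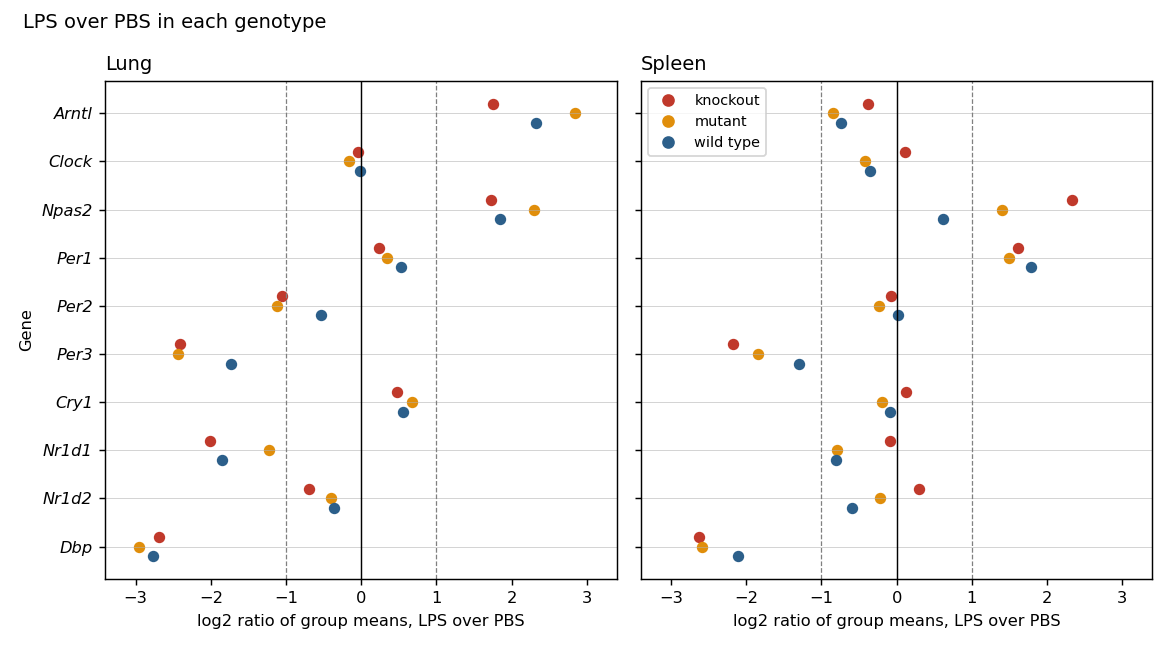
Log2 ratio of the LPS group mean to the PBS group mean (pseudocount of 1) for each clock gene and genotype in lung (left) and spleen (right); dashed lines mark 2-fold. Dbp lies between -2.95 and -2.11 in all 6 pairs of groups, and Arntl between 1.75 and 2.84 in lung but between -0.85 and -0.38 in spleen.

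Counted over group means, 5 of 10 clock genes had all 3 LPS means below all 3 PBS means in lung (Per2, Per3, Nr1d1, Nr1d2 and Dbp), where 36.4% of 15523 genes did, and 4 of 10 had them above (Arntl, Npas2, Per1 and Cry1), where 35.4% did. In spleen it was 4 of 10 below (Arntl, Per3, Nr1d1 and Dbp), where 31.4% of 13918 genes did, and 2 of 10 above (Npas2 and Per1), where 30.3% did. Npas2 had a mean under 10 in every spleen group, so it is not among those 13918 genes. So many genes were set apart between the treatments that nothing about clock genes is read from these counts. Single members lay in the tails of the distribution and others in its centre, as the plot of all genes shows.

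**Figure D3:**
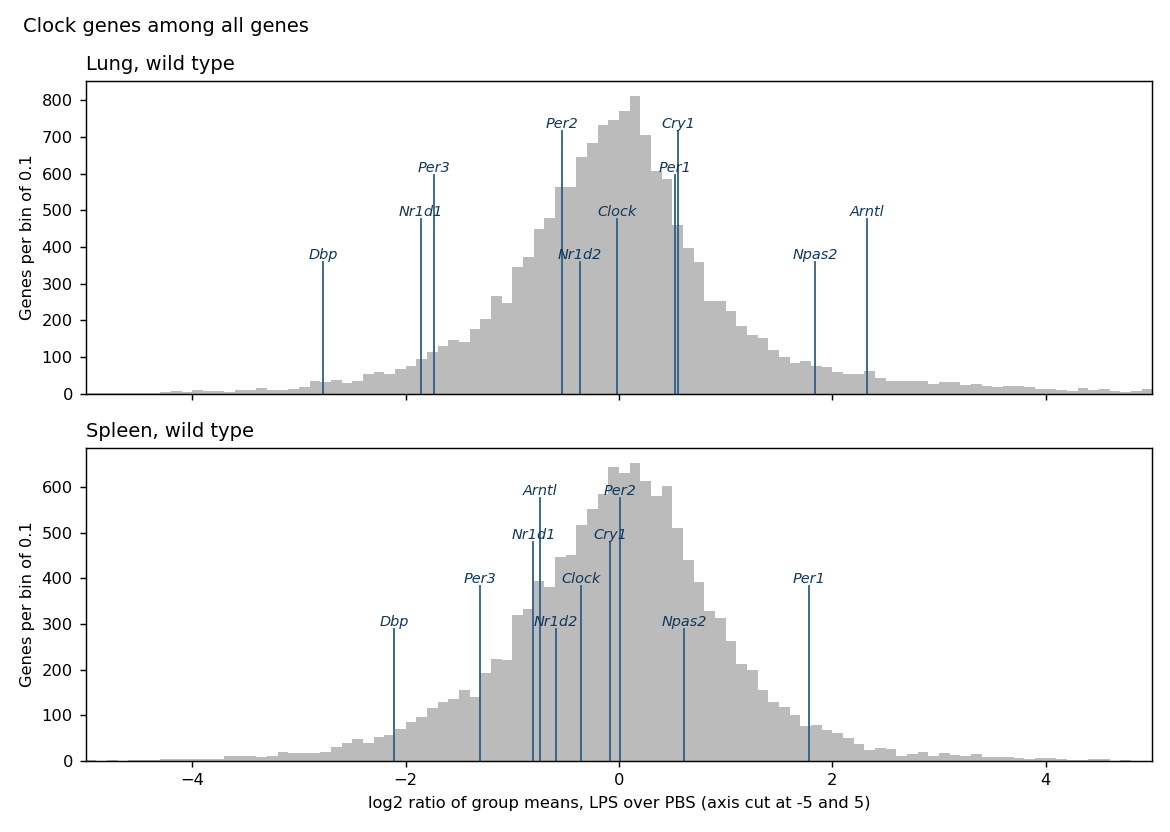
Histograms of the log2 ratio of LPS over PBS for all genes whose mean reached 10 with either treatment, in wild type lung (top, 15041 genes) and spleen (bottom, 13513 genes), with the clock genes as lines whose height has no meaning. Dbp, Nr1d1 and Per3 lie in the lower tail in lung and Arntl and Npas2 in the upper one; in spleen Dbp and Per1 lie farthest from 0, and Npas2 is drawn though its means are under 10.

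The balance of the 2 arms can be put in 1 number, the mean of Dbp divided by the mean of Arntl. It was not corrected for gene length and is compared only between groups of a tissue. In lung it was 2.28 with LPS against 51.0 with PBS in the knockout, 1.13 against 64.7 in the mutant and 1.74 against 62.2 in wild type. Spleen gave 0.733 against 3.56 in the knockout, 0.967 against 3.27 in the mutant and 1.35 against 3.49 in wild type. The ratio was lower with LPS in all 6 pairs of groups. In spleen both genes were lower with LPS, Dbp by more.

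**Figure D4:**
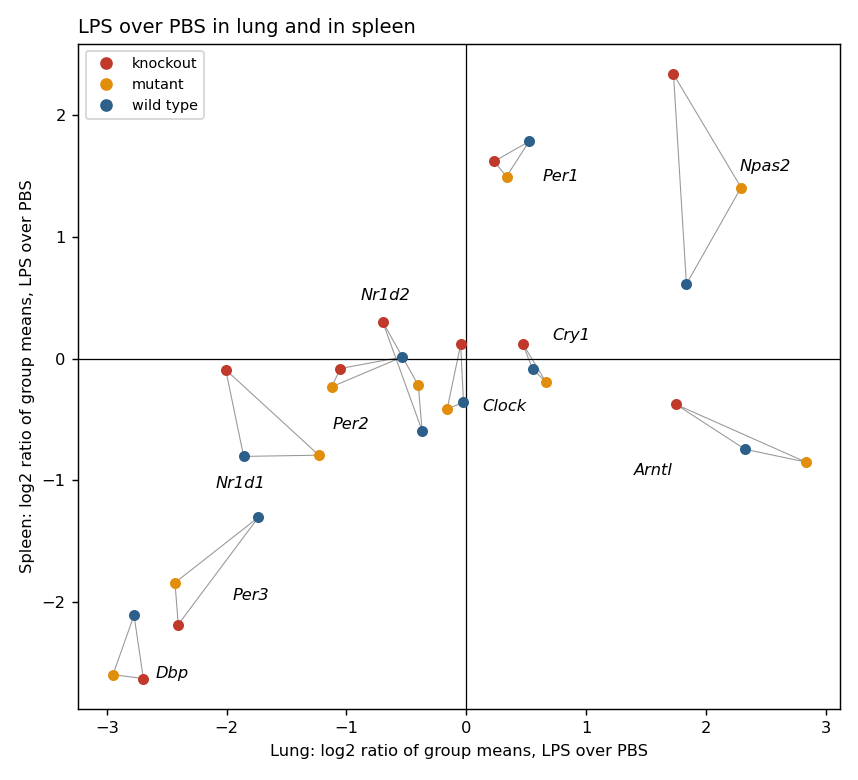
Log2 ratio of LPS over PBS in lung (horizontal) and in spleen (vertical) for each clock gene; each point is 1 genotype and grey lines join the genotypes of a gene. Dbp, Per3 and Nr1d1 are in the lower left in all 3 genotypes, and Arntl lies farthest into the lower right, higher with LPS in lung and lower in spleen in all 3 genotypes.

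Per kilobase of exon (GENCODE M21, an approximation to the gene models the authors counted), the order of levels differed between treatments. In wild type lung with LPS Per1 was highest, at 355 normalized counts per kb, followed by Nr1d2 at 274 and Nr1d1 at 184, while with PBS Nr1d1 led at 666, followed by Dbp at 468, Nr1d2 at 353 and Per1 at 247. Dbp held rank 6 with LPS and rank 2 with PBS in wild type lung. Npas2 was lowest in all 6 lung groups, at between 1.76 and 9.73, and Arntl next to it, at between 2.98 and 22.1. In wild type spleen Per1 led with LPS at 94.3, and Dbp led with PBS at 62.5, against 14.3 for Dbp with LPS. Nr1d1 and Nr1d2 were neighbours in spleen with PBS, at 53.3 and 55.3 in wild type, and no spread is at hand to tell such neighbours apart. Levels in lung and spleen were normalized separately and are not compared.

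The knockout and the mutant against wild type ask whether clock genes depend on lincRNA-Cox2 or its locus. No clock gene was called in any of the 12 genotype comparisons, 6 per tissue, at an adjusted p under 0.05 in the authors' deposited table, made with DESeq2 per the submitters' processing notes, nor at an adjusted p under 0.1. Of 60 member tests per tissue, 60 in lung and 50 in spleen had an adjusted p; the smallest was 0.342 in lung and 0.477 in spleen in the authors' deposited table. Unadjusted p-values were not used here, and no other test could be run on group means. A p that misses the threshold does not show that the genotypes were alike.

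Calls were rare among all genes too. In lung with LPS 0.441% of tested entries were called for knockout over wild type, 0.0715% for mutant over wild type and 0.243% for knockout over mutant; with PBS the shares were 0.0421%, 0.00524% and 0.0523%. In spleen with LPS they were 0.0241%, 0.00545% and 0.177%, and with PBS 0.16% of the 3124 entries that had an adjusted p, 0% and 0%. A count of 0 among 10 genes is what such shares give for any 10 genes, so nothing about clock genes is read from it.

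In lung with LPS the deposited folds of the knockout over wild type ran from -0.59 for Per3 to 0.21 for Dbp, and those of the mutant over wild type from -0.60 for Per3 to 0.55 for Nr1d1 (log2, authors' deposited table). Per2 stood at -0.42 in the knockout (adjusted p = 0.342) and at -0.51 in the mutant (adjusted p = 0.650), in the authors' deposited table. Per2 and Per3 were thus on the low side of wild type in both lines, and since both comparisons share the wild type libraries, the second is no repeat of the first. Arntl had the largest fold between the lines, -0.66 in the knockout over the mutant (adjusted p = 0.538) in the authors' deposited table. Its means were 104 and 166. Xist with LPS averaged 4510 in mutant lung, against 23.2 in knockout lung and 14.5 in wild type lung. Spleen gave 4670 against 33.7 and 31.3 in the same order. Sex and genotype therefore cannot be told apart in the LPS comparisons with the mutant.

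In spleen with LPS 8 of 10 clock genes had a deposited fold above 0 in the knockout over wild type, with a median of 0.28 beside -0.03 for all genes. In the mutant over wild type 5 were above 0 and 5 below, with a median of -0.0017, and Nr1d2 stood at 0.05 and Nr1d1 at 0.04 in the authors' deposited table. The highest fold of the knockout over wild type was that of Npas2, 0.90 (adjusted p = 0.712) in the authors' deposited table, from means of 7.28 and 3.12. In that comparison Nr1d2 stood at 0.72 (adjusted p = 0.588) and Nr1d1 at 0.63 (adjusted p = 0.660) in the authors' deposited table. Over the mutant, Nr1d2 stood at 0.67 in the knockout (adjusted p = 0.477) and Nr1d1 at 0.59 (adjusted p = 0.603) in the authors' deposited table. Per3, at -0.58 over wild type (adjusted p = 0.678) in the authors' deposited table, went the other way. Markers of B cells summed to 2987 in knockout spleen with LPS, 3414 in mutant spleen and 5753 in wild type spleen. Those of T cells summed to 460, 557 and 963 in the same order. The part of both cell types in these folds was not tested. With PBS, 8 of 10 clock genes were also above 0 in the knockout over wild type in lung. The mutant over wild type in spleen gave 8, and the knockout over the mutant in lung gave 9. The share of all genes above 0 was not counted, so nothing is read from these counts.

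With PBS the lung folds were small: between -0.12 and 0.39 in the knockout over wild type, and between -0.19 and 0.12 in the mutant over wild type, in the authors' deposited table. Arntl had the highest one in the knockout, 0.39 (adjusted p = 1) in the authors' deposited table, with means of 30.2 and 22.5. In spleen with PBS the folds ran from -0.62 for Npas2 to 0.24 for Per1 in the knockout over wild type, and Per1 was the 1 clock gene with an adjusted p there, 0.999 in the authors' deposited table. The mutant over wild type ran from -0.32 for Nr1d2 to 0.42 for Per1, with no adjusted p under 1, in the authors' deposited table.

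**Figure D5:**
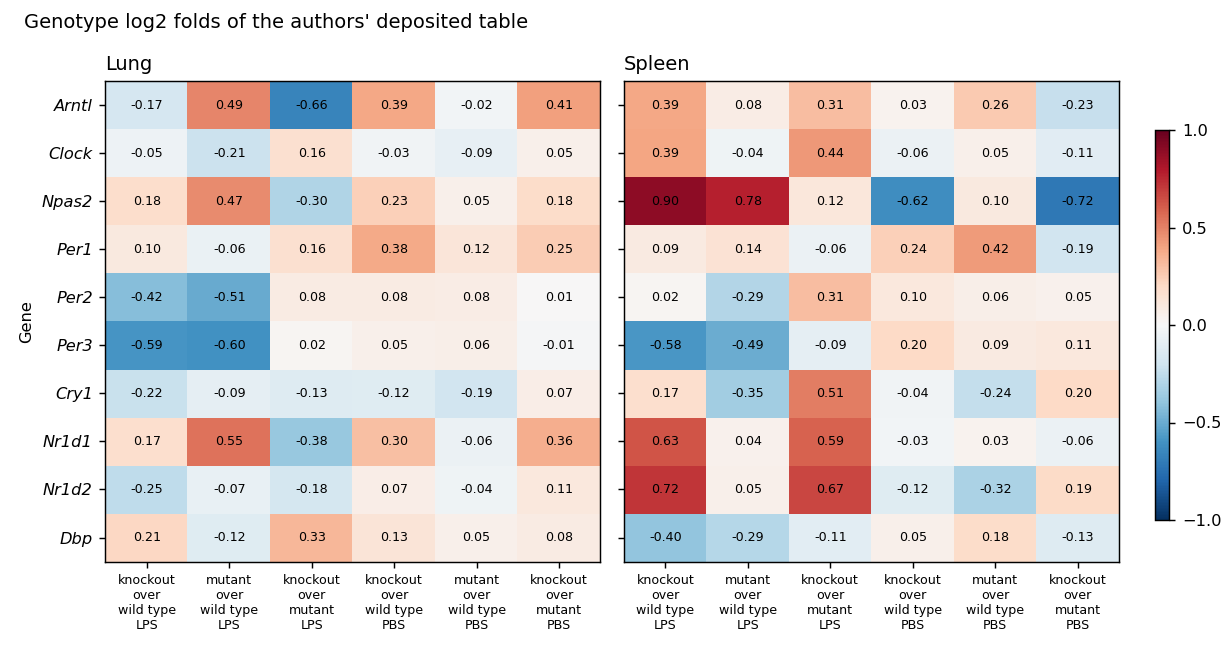
Log2 folds between genotypes from the authors' deposited table for the 10 clock genes in lung (left) and spleen (right), the first-named genotype over the second, with LPS in the 3 left columns and PBS in the 3 right ones. No cell reaches 1 in either direction and none has an adjusted p under 0.05. Deposited folds can lie nearer 0 than log2 ratios of means. Npas2 in spleen with LPS, knockout over wild type, has 0.90 deposited and 1.01 as a ratio (pseudocount of 1), from means under 10.

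Responses can also be set side by side between genotypes, as the log2 ratio of LPS over PBS in a line minus that in wild type; these differences have no test. In lung Per3 differed by -0.67 in the knockout and -0.70 in the mutant, and Per2 by -0.51 and -0.59, so that both had a lower ratio in the lines than in wild type. Arntl differed by -0.58 in the knockout and by 0.51 in the mutant, and Nr1d1 by -0.15 and 0.63. In spleen Nr1d2 differed by 0.89 in the knockout and 0.37 in the mutant, and Nr1d1 by 0.71 and 0.01. Per3 differed by -0.88 and -0.54 in spleen and Dbp by -0.52 and -0.49, so that Per3 had a lower ratio in both lines than in wild type in both tissues. In lung Clock differed by -0.02 and -0.14 and Dbp by 0.08 and -0.18. Npas2 in spleen rests on means under 10 and is left out here. The lines share their wild type groups, and Xist and Ddx3y differed between treatments within genotypes as given above. With LPS both genes also set the mutant apart from the knockout and wild type. The part of sex in these differences was not tested.

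The 16 other genes of the clock and its outputs reported here (Cry2, Bhlhe40, Bhlhe41, Ciart, Nfil3, Tef, Hlf, Rora, Rorb, Csnk1d, Csnk1e, Fbxl21, Btrc, Wee1, Usp2 and Nampt) were all in both tables, and none was called between genotypes in the authors' deposited table. In lung, of those with a mean of at least 10, 5 of 14 were at least 2-fold lower with LPS in the knockout and 5 of 14 in the mutant (Bhlhe41, Ciart, Hlf, Tef and Usp2 in both), and 3 of 15 in wild type (Bhlhe41, Ciart and Hlf), beside 17.7%, 16% and 14.3% of all genes. In each lung genotype 3 were at least 2-fold higher (Bhlhe40, Nampt and Nfil3), beside 16.9%, 15.5% and 13.9% of all genes. The median log2 ratio in lung was -0.78 in the knockout, -0.34 in the mutant and -0.19 in wild type, and the difference between genotypes was not tested. In spleen 3 of 14 were lower in each genotype (Bhlhe41, Hlf and Tef), beside 18.7% of all genes in the knockout, 16.7% in the mutant and 14.8% in wild type. There 4 of 14 were higher in the knockout and 4 in the mutant (Bhlhe40, Ciart, Nampt and Nfil3), and 3 in wild type (Ciart, Nampt and Nfil3), beside 16.6%, 15.3% and 13.5%. The median in spleen was 0.11 in the knockout, -0.16 in the mutant and -0.0023 in wild type. The wild type counts lie near the shares of all genes. The counts lower in knockout and mutant lung and higher in knockout and mutant spleen lie above those shares. With so few genes and no test, nothing particular to the list is read from any of these counts.

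The D-box factors lay on both sides. Hlf, an activator of the same family as Dbp, averaged 47.2 with LPS against 725 with PBS in knockout lung, 40.6 against 761 in mutant lung and 68.3 against 629 in wild type lung. Nfil3, the repressor that binds the same D-boxes, averaged 705 against 26.9 in knockout lung, 596 against 29.0 in mutant lung and 546 against 31.4 in wild type lung. Activator and repressor were thus on opposite sides, without overlap between treatments. In spleen Hlf averaged 8.23 against 47.4 in the knockout, 6.09 against 46.0 in the mutant and 6.78 against 59.8 in wild type. Nfil3 in spleen averaged 351 against 15.8, 314 against 18.1 and 265 against 18.5 in the same order. Nampt, the rate-limiting enzyme of NAD salvage and a clock output, averaged 7650 against 807 in knockout lung, 7420 against 764 in mutant lung and 7010 against 814 in wild type lung.

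Ciart, a repressor of CLOCK and BMAL1, parted the tissues. It averaged 116 against 265 in knockout lung, 111 against 331 in mutant lung and 113 against 269 in wild type lung, but 133 against 12.8 in knockout spleen, 65.7 against 24.3 in mutant spleen and 119 against 13.6 in wild type spleen. LPS and PBS means did not overlap in either tissue. Cry2, the other cryptochrome, was higher with LPS in all 6 pairs of groups and under 2-fold in each, with 1270 against 839 in wild type lung and 122 against 72.7 in wild type spleen.

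Glucocorticoids, which surge in systemic inflammation, are known to induce Per1. Of 6 listed glucocorticoid-induced genes (Tsc22d3, Fkbp5, Sgk1, Zbtb16, Dusp1 and Klf9) 4 were at least 2-fold higher with LPS in knockout lung, 4 in mutant lung and 5 in wild type lung, beside 16.9%, 15.5% and 13.9% of all genes. In spleen it was 4 in the knockout, 3 in the mutant and 3 in wild type, beside 16.6%, 15.3% and 13.5%, and none was at least 2-fold lower in any of the 6 pairs of groups. The members did not all lie on one side: Tsc22d3, which encodes the glucocorticoid-induced leucine zipper protein, averaged 654 against 905 in knockout spleen and 653 against 1090 in mutant spleen, but 1070 against 634 in wild type spleen. Fkbp5, a chaperone partner of the glucocorticoid receptor, averaged 3560 against 237 in wild type lung and 612 against 228 in wild type spleen. Zbtb16, a transcription factor, averaged 2430 against 333 in wild type lung and 133 against 26.0 in wild type spleen. Sgk1, a kinase, averaged 3110 against 803 in wild type lung, and Dusp1, a phosphatase of MAP kinases, 1480 against 181 in wild type spleen. Whether this hormone acted on Per1 here was not tested.

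Markers of cell types differed between the treatments as well. Neutrophil markers (5 of 5 in the table) summed to between 16758 and 21819 in the lung groups with LPS against 1424 to 1863 with PBS, and B cell markers in spleen to between 2987 and 5753 against 7369 to 9762. Endothelial markers in lung summed to between 20574 and 23653 with LPS against 24066 to 27540 with PBS, but the members parted. Kdr and Tie1 were at least 2-fold lower with LPS in all 3 genotypes and Pecam1 in the knockout and the mutant, while Cldn5 was at least 2-fold higher in the knockout. The median log2 ratio of the 5 endothelial markers was -1.53 in the knockout, -1.15 in the mutant and -0.76 in wild type lung. Neutrophil markers in spleen with LPS summed to 3376 in the knockout, 18312 in the mutant and 5109 in wild type. Markers of organs nearby varied as well. Hepatocyte markers summed to between 15.5 and 3862 over the lung groups and pancreatic acinar markers to between 1006 and 21130 over the spleen groups. Skeletal muscle markers summed to 610 with LPS and 2598 with PBS in knockout lung. In the other lung groups they summed to between 56.65 and 71.3. Of the 10 marker lists, Ltf (neutrophils, knockout over mutant, spleen with LPS) and Pax5 (B cells, knockout over wild type, lung with LPS) were called between genotypes in the authors' deposited table. Ttr of the hepatocyte list was at 0 in some lung group, no neutrophil, B cell or endothelial marker was at 0 in any group, and their part in the clock gene ratios was not tested. In bulk tissue, fewer cells of a type and less RNA per cell cannot be told apart. The sex-linked genes differed between the treatments in every genotype, in the mutant through Ddx3y, and the part of sex in the clock gene ratios was not tested.

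Over the 6 lung groups the genes with the pattern most like Dbp were Ldb1, Mrpl34 and Cdc42ep1, each with r = 0.999, and those most like Arntl were Tmbim1, Gem and Ripk2, with r = 0.999, 0.999 and 0.998. This is Pearson's r of log2 means with a pseudocount of 1 over 6 group means, given as a description. All genes share the libraries behind these means and their LPS and PBS split. In lung 1793 of 11848 genes reached an r of at least 0.95 with Dbp and 2215 with Arntl. In spleen the nearest to Dbp were Arhgef6, Akr1b10 and Ccdc88a, with r = 1.000, 0.999 and 0.999, and the nearest to Arntl were Arhgap24, Tmem63a and Ltbp2, with r between 0.990 and 0.993. There 848 of 9623 genes reached 0.95 with Dbp and 48 with Arntl.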

How the data were processed

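The authors' tables, 1 per tissue, were used as deposited. STAR 2.5.3a, Bowtie2, SAMtools, bedtools and DESeq2 with mm10 are named in the submitters' processing notes, with no order and no settings given. Each table holds, per the file headers, group means of normalized counts, a signal made by the authors from counts; genotype log2 folds, deposited as the second group over the first; and the authors' deposited adjusted p-values and call marks, both kept as a score because a few lines with broken cells hold other numbers there. Large deposited folds lie nearer 0 than ratios of means: Xist in lung with LPS, mutant over wild type, has 2.11 deposited and 8.19 as a ratio. Values of single libraries were not used here, so library depth is unknown; group means summed to between 7.44e+06 and 1.05e+07 in lung and between 3.56e+06 and 5.02e+06 in spleen.

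Of 19476 lung lines 6 with broken cells were left out, and of 18850 spleen lines 5; 1026 spleen symbols split at a fixed width were rejoined. A repeated symbol is given by its entry with the highest overall mean. LPS over PBS is log2 of (LPS mean + 1) over (PBS mean + 1), with a 2-fold limit, and all-gene shares are over genes whose mean reached 10 with either treatment; the script was tested on simulated data. Genotype comparisons are the authors', called at an adjusted p under 0.05; no fit on libraries could be made. Calculations used Python 3.11.15, numpy 2.4.6 and pandas 2.3.3, with GENCODE M21 for positions and lengths and RefSeq for promoters.

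The clock genes and the other lists were chosen with earlier results of these data known. Some genes of the list of other clock genes are not reported here and were left out of its counts. Named are the 10 clock genes in every group; of other lists, genes called in any comparison and the 3 with the largest absolute LPS ratio in wild type of each tissue; the 3 genes nearest to Dbp and to Arntl with an overall mean of at least 50; and Thra, Sphk2, Xist and Ddx3y. Genes of the lists that are at least 2-fold apart are named beside their count, and Cry2 and Ciart in lung were named after their values were seen. The alternatives were pseudocounts of 0.1 and 10, limits of 1.5-fold and 3-fold, recentring, other filters, an adjusted p of 0.1, ratios of means in place of deposited folds, and Spearman's rho.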

Additional observations from a re-analysis of the deposited data

Results flagged for a closer look

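Arntl and Ciart had LPS ratios on opposite sides of 0 in the 2 tissues in all 3 genotypes, which is why they are given here; with group means only, the difference between tissues was not tested, and the tables were normalized separately. For Arntl, the log2 ratio of LPS over PBS in lung minus that in spleen was 2.13 in the knockout, 3.68 in the mutant and 3.07 in wild type. For Ciart it was -4.46 in the knockout, -2.97 in the mutant and -4.28 in wild type. The labels do not say which lung and spleen came from 1 mouse.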

How the results depend on the processing

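No clock gene was called between genotypes at an adjusted p under 0.05 or 0.1, with 1 entry or every entry of a symbol. The counts of clock genes at least 2-fold apart with LPS moved by over 1.5 times as follows. At a 3-fold limit the count lower in mutant lung was 2, that lower in wild type spleen 1 and that higher in mutant spleen 0. At a 1.5-fold limit the count lower was 4 in mutant spleen and 5 in wild type spleen, and that higher in wild type spleen 2. With a pseudocount of 10 the count higher was 1 in knockout and 1 in mutant spleen, because Npas2, with its low means, was then at 0.70 and 0.47. The other counts, including all those recentred on the median of all genes or with a pseudocount of 0.1, stayed within 1.5 times. Of 180 recomputed LPS ratios of single clock genes 178 kept their side of the 2-fold limit and none of those past it changed sign. All 120 deposited genotype folds had the sign of the ratio of means. By Spearman's rho 1 of the 3 genes nearest to Dbp in lung was among the nearest 3.

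No paired analysis was possible because the deposited values are group means and the labels pair no libraries. Leaving out single libraries could not be done for the same reason, so whether 1 library decides a mean is unknown. Without library values, no depth, interval or floor can be given.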
